A study of Homo sapiens with 6 samples.

Results

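The SLC25 family comprises the mitochondrial carriers, small membrane proteins that move nucleotides, phosphate, carboxylates, amino acids, cofactors and metal ions, mostly across the inner mitochondrial membrane. Its members were taken as the protein-coding rows of the deposited count table whose symbol was SLC25A followed by a number. There were 46 such rows of 30327, for 45 genes, because SLC25A6 had a row for its copy on X and a row for its copy on Y. After the filter on low counts, 41 rows (40 genes) of the 15801 rows kept could be tested. SLC25A20, SLC25A31 and SLC25A48 were not analysed here.

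The RNA came from SK-BR-3, a human breast cancer cell line that overexpresses the receptor HER2. The 6 poly(A) RNA libraries formed 2 groups of 3. The si_NC cells had received a nontargeting siRNA, and the si_GRB2 cells an siRNA directed at GRB2, an adaptor protein that links receptor tyrosine kinases to RAS signaling. The sample descriptions named the treated libraries si_GRB2, whereas their titles and genotype entries named overexpression of GRB2. The study's methods also list a GRB2 overexpression group for RNA sequencing, whereas its results describe a knockdown. GRB2 itself was measured at 124, 130 and 126 CPM in si_NC and at 27.8, 28.1 and 29.6 CPM in si_GRB2, where CPM is the read count of a gene scaled to a common library size with TMM factors, so GRB2 was lower in every library described as si_GRB2 (log2 fold change -2.15 ± 0.04 (SE), adjusted p = 3.87e-15). The study's methods give the sequence of a single siRNA against GRB2, its list of RNA samples names several, and the labels do not say which the sequenced cells received. The cells were of a single line. The methods speak of independent experiments in general, but neither they nor the labels say that these replicates were separate cultures, so p-values measure the spread between these libraries.

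Between 24810378 and 28532480 reads per library fell on genes, and the log2 CPM of libraries, across genes, correlated at 0.992 to 0.995 within groups and at 0.988 to 0.992 between them. Of 9 markers of the HER2 amplicon and luminal epithelium, 8 had means of 169 to 5230 CPM, while CDH1, which encodes E-cadherin, was at 0.06 CPM. The sum of these markers was 20006 to 20487 CPM in si_NC and 16682 to 17367 CPM in si_GRB2. Within it ERBB2, the gene of HER2, was higher in si_GRB2 (log2 fold change 0.24, adjusted p = 1.14e-06), while the keratins, EPCAM, STARD3 and GRB7 were lower. The sum of 9 leukocyte, fibroblast and endothelial markers was 35.8 to 36.5 CPM in si_NC and 23.5 to 27.2 CPM in si_GRB2, most of it CDH5, with PTPRC and PECAM1 near 0. The part of these marker shifts in the values below was not tested. In bulk RNA, fewer cells that express a gene and less RNA per cell cannot be told apart.

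SLC25 carriers share a fold built from repeats of a short module with a pair of membrane-spanning helices, and most exchange a substrate of the matrix for a substrate of the cytosol. The ADP/ATP carriers export ATP made by oxidative phosphorylation, the phosphate carrier brings in the phosphate it needs, and the aspartate/glutamate, oxoglutarate and citrate carriers connect the matrix to cytosolic redox balance and lipid synthesis. The carriers are made in the cytosol from nuclear genes, and those of the inner membrane are inserted by the TIM22 pathway.

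SLC25 members called in both directions were balanced, and their changes were small. Of the 41 rows tested, 12 passed an adjusted p of 0.05 (29.3%), beside 30.6% of all rows tested. Higher in si_GRB2 were 6 members (14.6%, beside 15.2% of all rows tested), and lower were 6 (14.6%, beside 15.5%). A differentially expressed gene (DEG) needed more than a 1.5-fold rise, or a fall of the inverse size or more, and an adjusted p under 0.01; no member passed these limits, beside 2.52% of all rows tested. At an unadjusted p of 0.05, 15 members passed in edgeR (36.6%, beside 39.4% of all rows tested). DESeq2 called 8 of the 39 members it gave an adjusted p (20.5%, beside 27.3% of all rows with an adjusted p). In 20 rows (48.8%) the libraries of the groups did not overlap, beside 42.3% of all rows tested and 47.7% of the protein-coding rows tested. Every member row is protein-coding, and of the protein-coding rows tested 35.8% passed an adjusted p of 0.05, more than the 29.3% of members. Of these protein-coding rows, 17.87% were higher and 17.97% lower, and 2.86% passed the DEG limits.

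The log2 fold changes of called members had sizes of 0.10 to 0.54. The median log2 fold change of the 41 rows was 0.03, beside 0.0019 for all rows tested, and the median of their absolute values was 0.099, beside 0.141. The middle of the family was accordingly narrow, with its 10th and 90th percentiles at -0.17 and 0.19, beside -0.33 and 0.29 for all rows tested. For the protein-coding rows tested these percentiles were -0.31 and 0.28. The members were also measured more precisely, with a median SE of 0.050. It was 0.071 for all rows tested and 0.057 for the protein-coding rows. At a mean of at least 5 CPM, where the test had more reads to work with, 12 of 35 members (34.3%) were called, beside 40.9% of 10624 rows. The balance of directions depended on the scaling: with library size alone in place of TMM factors, 12 members were higher and 3 lower. This scaling called 32.8% of all rows and moved the median of all rows to 0.05. How the calls over all rows split by direction is not given here.

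**Figure D1:**
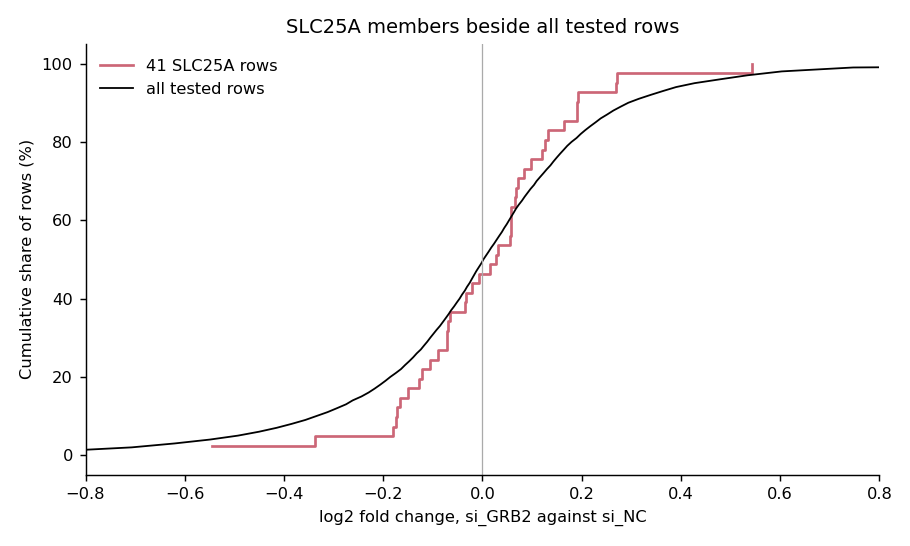
Cumulative share of rows (percent, vertical axis) against the log2 fold change of si_GRB2 against si_NC (horizontal axis, drawn from -0.8 to 0.8), for the 41 tested SLC25 rows (red steps) and all 15801 tested rows (black line). The red steps rise more steeply around 0 than the black line, with a median of 0.03 beside 0.0019.

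Summed over all members, the family took 2936, 2935 and 2917 CPM in si_NC, as against 2889, 2867 and 2850 CPM in si_GRB2. Every si_GRB2 total was below every si_NC total on this scale, but the direction turned with library size alone, where the family took 0.288% ± 0.002 (SD, n = 3) of all gene reads in si_NC and 0.292% ± 0.0017 (SD, n = 3) in si_GRB2, with overlap. Without SLC25A5 and SLC25A3 the si_NC total was 1562 ± 14.1 CPM (SD, n = 3) and the si_GRB2 total 1581 ± 11.9 CPM (SD, n = 3), and the libraries overlapped. SLC25A5 alone took 25.9% ± 0.440 (SD, n = 3) of the family's reads in si_NC and 23.4% ± 0.164 (SD, n = 3) in si_GRB2. SLC25A6 entered these totals and shares through the reads counted on its X and Y rows. Its bases are the same on both chromosomes, so a read inside the gene fits both copies equally well. How reads came to be counted on these rows, when the authors state that uniquely mapped reads were used, is not known. The number of reads left out is not known either.

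Per length, the ADP/ATP carrier SLC25A5 was the most abundant member by a wide margin, leaving aside SLC25A6, whose rows do not give its level. Its level was 392 ± 9.03 FPKM (SD, n = 3) in si_NC and 358 ± 6.50 FPKM in si_GRB2. The citrate carrier SLC25A1 followed at 71.4 ± 4.75 FPKM in si_NC and 78.7 ± 1.25 FPKM in si_GRB2, and the phosphate carrier SLC25A3 was next at 54.9 ± 0.985 and 57.2 ± 1.22 FPKM. The oxoglutarate carrier SLC25A11 (35.4 ± 1.88 FPKM in si_NC) and the aspartate/glutamate carrier SLC25A13 (31.9 ± 0.931 FPKM in si_NC) came after these. SLC25A39, a carrier needed for mitochondrial glutathione import, was at 29.0 ± 1.66 FPKM in si_NC, and over the 6 libraries its range overlapped that of SLC25A13. The deposited FPKM divided the reads of 34 of 36 members with at least 500 reads by 1 multiple, within 1%, of the length of all their annotated exons together. With CPM per kilobase of the MANE Select transcript (the reference isoform of each gene) instead, the order of SLC25A5, SLC25A1 and SLC25A3 was kept, at means of 548, 119 and 102 CPM per kilobase, and SLC25A39 came next. Both measures divide by an annotated length. The MANE Select transcript has 5984 bases for SLC25A3, beside 1548 for SLC25A1 and 1307 for SLC25A5. In CPM, not divided by length, SLC25A3 (609 ± 11.1 in si_NC) was above SLC25A1 (178 ± 5.34 in si_NC).

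At the other end, 5 members had too few reads to be tested. SLC25A41 had 24 reads over the 6 libraries, SLC25A18 had 14, SLC25A2 had 8, SLC25A52 had 5 and SLC25A47 had 4. SLC25A52 is a close relative of the mitochondrial NAD carrier SLC25A51. SLC25A21, SLC25A27, SLC25A34, SLC25A42 and SLC25A53 were tested at means of at most 1.32 CPM in either group, and none of them was called.

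**Figure D2:**
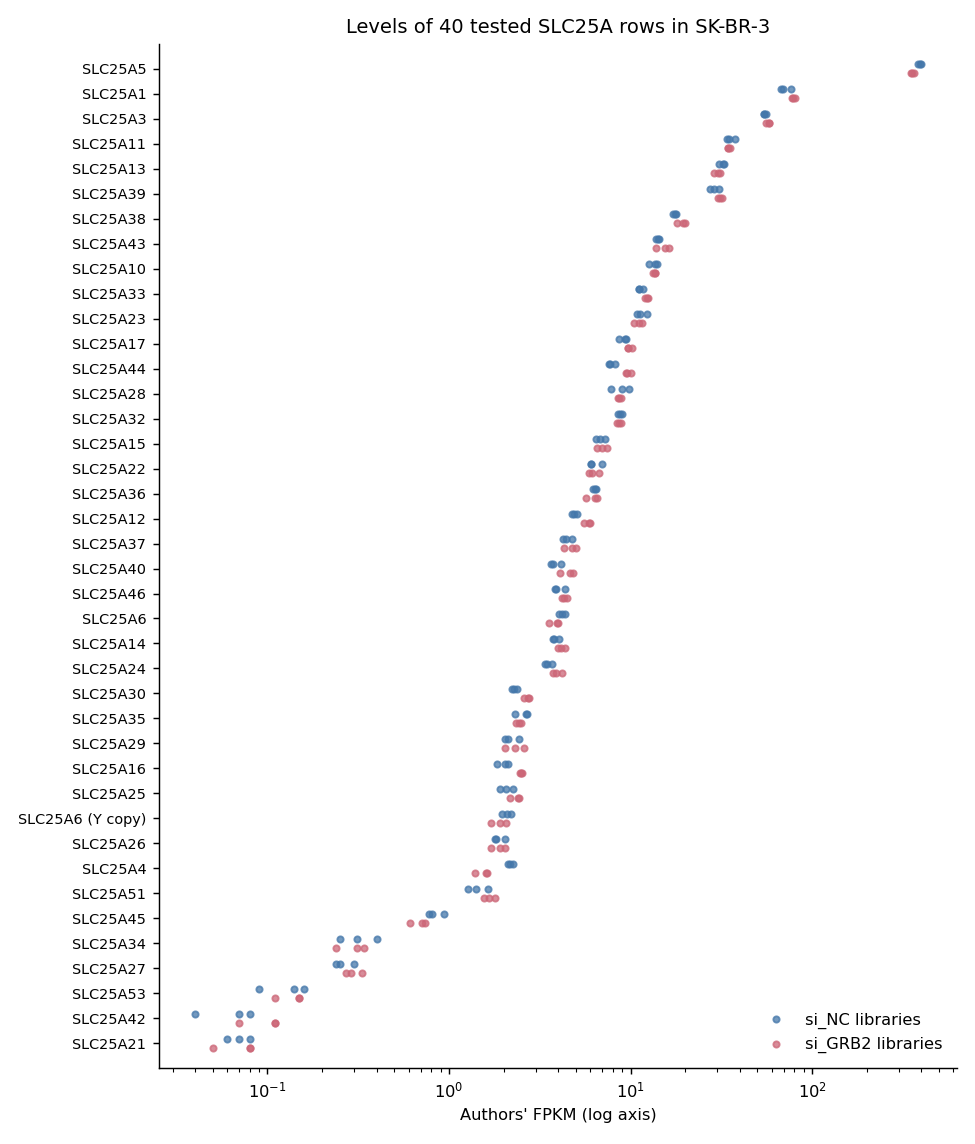
Level of 40 tested SLC25 rows in the authors' FPKM (horizontal log axis), with 1 point per library, blue for si_NC and red for si_GRB2, ordered by the mean. SLC25A5 stands apart on the right near 392 FPKM in si_NC, followed by SLC25A1 at 71.4 FPKM and SLC25A3 at 54.9 FPKM; the rows of SLC25A6 do not give its level, because its X and Y copies are identical.

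The ADP/ATP carriers are close paralogs, and their coding sequences are shown because counting by unique mapping rests on the bases at which they differ. SLC25A4 (ENSG00000151729, chr4:185143266-185150382, plus strand, 4 exons), SLC25A5 (ENSG00000005022, chrX:119468422-119471396, plus strand, 4 exons) and SLC25A6 (ENSG00000169100, chrX:1386152-1392113, minus strand, 4 exons) lie on GRCh38, and each has a coding sequence of 894 bases in GENCODE 44. SLC25A4 and SLC25A5 shared 77.2% of these bases, SLC25A4 and SLC25A6 77.9%, and SLC25A5 and SLC25A6 78.7%. All 3 shared 621 bases (69.5%). The longest stretch without a difference was 14 bases between SLC25A4 and SLC25A5, 20 between SLC25A4 and SLC25A6, and 29 between SLC25A5 and SLC25A6. The window of 60 coding bases in which they were most alike (bases 76 to 135 of each, counted from the start codon) is shown with capitals at positions where the 3 genes did not all have the same base:
SLC25A4: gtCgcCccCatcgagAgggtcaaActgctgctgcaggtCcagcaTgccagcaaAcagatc
SLC25A5: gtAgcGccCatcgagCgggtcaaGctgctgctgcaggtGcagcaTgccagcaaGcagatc
SLC25A6: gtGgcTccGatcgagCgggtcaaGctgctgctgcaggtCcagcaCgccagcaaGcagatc

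In that window 52 of 60 bases were shared by all 3. The least alike window (bases 397 to 456) shared 33 of 60:
SLC25A4: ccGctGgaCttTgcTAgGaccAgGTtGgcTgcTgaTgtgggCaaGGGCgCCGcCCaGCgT
SLC25A5: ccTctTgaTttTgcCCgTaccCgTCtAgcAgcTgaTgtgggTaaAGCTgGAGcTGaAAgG
SLC25A6: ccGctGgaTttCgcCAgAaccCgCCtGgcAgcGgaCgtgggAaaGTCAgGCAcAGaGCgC

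SLC25A4 and SLC25A5 were both lower in si_GRB2. SLC25A4, the isoform typical of heart and skeletal muscle, was at 13.4, 13.7 and 12.2 CPM in si_NC and at 8.42, 9.07 and 9.36 CPM in si_GRB2. Every si_GRB2 library was below every si_NC library, and its log2 fold change of -0.54 ± 0.08 (SE, adjusted p = 9.9e-05) was the most negative in the family; the level fell by 31.5%. Without si_NC replicate 3 it reached -0.60, past the fold limit for a DEG.

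SLC25A5, the isoform typical of proliferating cells, was at 762, 773 and 743 CPM in si_NC and at 683, 671 and 664 CPM in si_GRB2. The groups were separate, with a log2 fold change of -0.17 ± 0.02 (SE, adjusted p = 4.3e-05), and the level fell by 11.4%. The call was lost with limma on log2(FPKM + 0.1) (adjusted p = 0.142) or log2(FPKM + 1) (0.111). SLC25A3, which carries the phosphate that ATP synthesis consumes, was at 618, 611 and 597 CPM in si_NC and at 619, 608 and 618 CPM in si_GRB2. Its groups overlapped, and its log2 fold change was 0.015 with a 95% interval of -0.036 to 0.066 (adjusted p = 0.694). With library size alone it was 0.066 (adjusted p = 0.0421), and without si_NC replicate 3 it was -0.0052 (adjusted p = 0.916).

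The values of SLC25A6 are not its level. The gene lies in the pseudoautosomal region, where all 5962 of its bases are the same on X and Y, and the authors counted uniquely mapped reads. The X row nevertheless held 1222 reads over the 6 libraries and the Y row 606. How reads that fit both copies were assigned is not given in the sources used here. The X row was at 8.31, 8.51 and 7.52 CPM in si_NC and at 6.91, 7.32 and 7.35 CPM in si_GRB2, and was not called (log2 fold change -0.17, adjusted p = 0.203), nor was the Y row (-0.18, adjusted p = 0.356).

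The ATP-Mg/phosphate carriers adjust the adenine nucleotide pool of the matrix in response to calcium. SLC25A23 was at 68.2, 69.5 and 71.9 CPM in si_NC and at 63.6, 66.6 and 64.7 CPM in si_GRB2. Its groups did not overlap, and it was called at a log2 fold change of -0.10 ± 0.04 (SE, adjusted p = 0.0473), the weakest call of the family. The call was lost without si_GRB2 replicate 1 (adjusted p = 0.143), si_GRB2 replicate 2 (0.0584), si_GRB2 replicate 3 (0.103), si_NC replicate 2 (0.0766) or si_NC replicate 3 (0.121), and under 8 of 11 alternatives that kept all libraries. SLC25A24 (log2 fold change 0.12, adjusted p = 0.0688) and SLC25A25 (0.13, adjusted p = 0.159) had positive values and were not called.

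Of the carriers that resemble the uncoupling proteins, SLC25A30 was higher in si_GRB2. It was at 19.8, 19.1 and 19.2 CPM in si_NC and at 22.0, 22.1 and 22.3 CPM in si_GRB2, and its log2 fold change was 0.19 ± 0.05 (SE, adjusted p = 0.0113). The call was lost with DESeq2 (adjusted p = 0.073) and with limma on log2(FPKM + 0.1) (0.0743) or log2(FPKM + 1) (0.0854). Exons of TPT1-AS1 overlap those of SLC25A30 on the opposite strand over 98 bases. TPT1-AS1 held 25.3% as many reads and was itself higher (log2 fold change 0.48, adjusted p = 0.00578). The libraries kept strand, but the strand setting of the authors' count is not given in the sources used here. SLC25A14 and SLC25A27 had log2 fold changes of 0.07 and 0.13 and were not called.

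**Figure D3:**
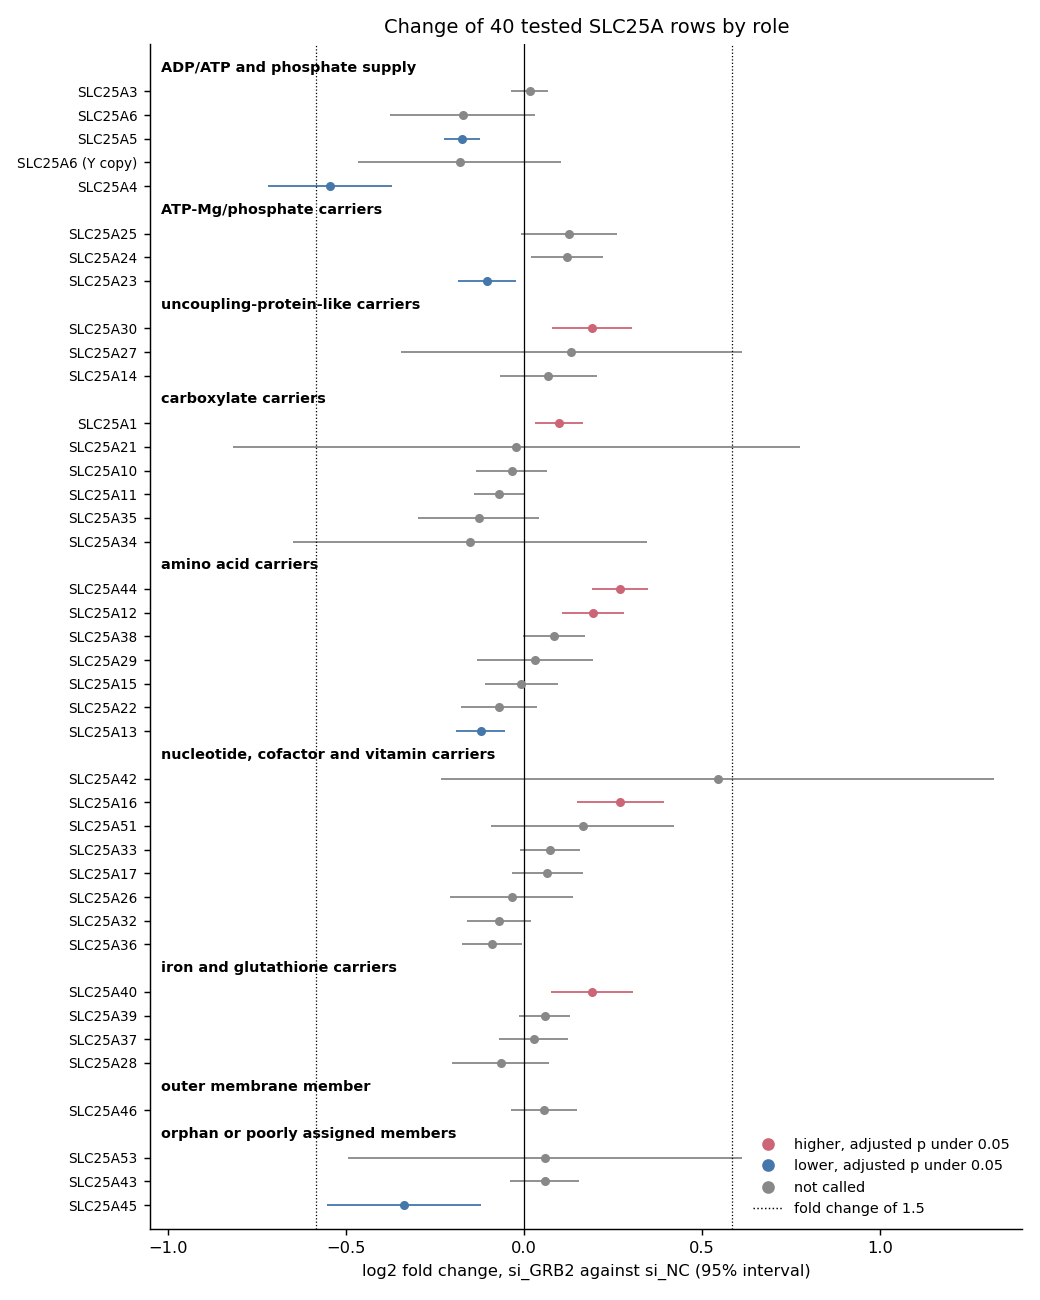
Log2 fold change of si_GRB2 against si_NC with its 95% interval (horizontal axis) for 40 tested SLC25 rows, grouped by role; red and blue mark members higher and lower at an adjusted p under 0.05, grey the others, and the dotted lines a fold change of 1.5. SLC25A4 at -0.54 is the called member farthest from 0, and the wide intervals belong to members with few reads, such as SLC25A42.

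Of 6 tested carboxylate carriers, 1 was called (16.7%, beside 30.6% of all rows tested). SLC25A1, which exports citrate for fatty acid and sterol synthesis, was at 174, 175 and 184 CPM in si_NC and at 195, 189 and 186 CPM in si_GRB2. Its groups touched closely without overlap, with a log2 fold change of 0.10 ± 0.03 (SE, adjusted p = 0.0253). The call was lost without si_GRB2 replicate 1 (adjusted p = 0.103), si_GRB2 replicate 2 (0.0646), si_NC replicate 1 (0.133) or si_NC replicate 2 (0.137), and in the 3 limma fits on FPKM (0.0697 to 0.208).

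SLC25A11, which exchanges oxoglutarate for malate, was at 108, 108 and 111 CPM in si_NC and at 106, 103 and 102 CPM in si_GRB2. Every si_GRB2 library was lower, yet its log2 fold change of -0.07 did not pass (adjusted p = 0.119). Exons of RNF167 overlap those of SLC25A11 on the opposite strand over 46 bases. RNF167 held 134% as many reads and was lower (log2 fold change -0.25, adjusted p = 1.25e-05). The remaining carboxylate carriers, SLC25A10, SLC25A21, SLC25A34 and SLC25A35, had log2 fold changes of -0.15 to -0.02 and were not called. RANGRF overlaps exons of SLC25A35 on the opposite strand over 1134 bases. It held 211% as many reads and was lower (-0.35, adjusted p = 0.000125). SLC25A10 shares 46.6% of its exon bases (1221) with a gene on the same strand (ENSG00000262660), which held 236% as many reads in a row of its own, and how reads in the shared bases were assigned is not given in the sources used here.

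Among the amino acid carriers, the paralogs SLC25A12 and SLC25A13 moved in opposite directions. Both are calcium-regulated aspartate/glutamate exchangers of the malate-aspartate shuttle, which brings the reducing power of cytosolic NADH into mitochondria. SLC25A12 (aralar; ENSG00000115840, chr2:171783405-171999859, minus strand, 18 exons) was at 37.5, 37.7 and 37.3 CPM in si_NC and at 42.2, 42.6 and 43.7 CPM in si_GRB2. The groups were well apart, with a log2 fold change of 0.19 ± 0.04 (SE, adjusted p = 0.00179). SLC25A13 (citrin; ENSG00000004864, chr7:96120220-96322147, minus strand, 18 exons) was at 147, 152 and 143 CPM in si_NC and at 134, 137 and 135 CPM in si_GRB2. Its log2 fold change was -0.12 ± 0.03 (SE, adjusted p = 0.00833). With library size alone the value of SLC25A13 was -0.07 and was no longer called (adjusted p = 0.0967), nor was it in the 3 limma fits on FPKM (0.261 to 0.382), and SLC25A12 narrowly lost its call with limma on log2(FPKM + 1) (adjusted p = 0.0535).

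A ratio of counts within a library does not depend on scaling, and 6 ratios between related carriers were computed, chosen after their values were seen. SLC25A12 to SLC25A13 was 0.255, 0.247 and 0.262 in si_NC and 0.315, 0.311 and 0.324 in si_GRB2. The groups were separate by more than their spread, a difference of 0.31 in log2 ratio. SLC25A4 to SLC25A5 was 0.0175, 0.0177 and 0.0164 in si_NC and 0.0123, 0.0135 and 0.0141 in si_GRB2, a difference of -0.37. SLC25A5 to SLC25A3 went from a mean of 1.25 to 1.09, a difference of -0.19. SLC25A24 to SLC25A23 and SLC25A25 to SLC25A23 each differed by 0.23. In these 5 ratios the groups did not overlap, which gave the smallest two-sided p of an exact permutation test with 3 libraries a group, p = 0.1. Because the pairs were chosen after their values were seen, this p adds no support. SLC25A12 and SLC25A13 were each without overlap and in opposite directions, so their ratio had to separate. The same holds for SLC25A24 and SLC25A25 against SLC25A23. SLC25A40 to SLC25A39 overlapped (exact permutation p = 0.3).

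**Figure D4:**
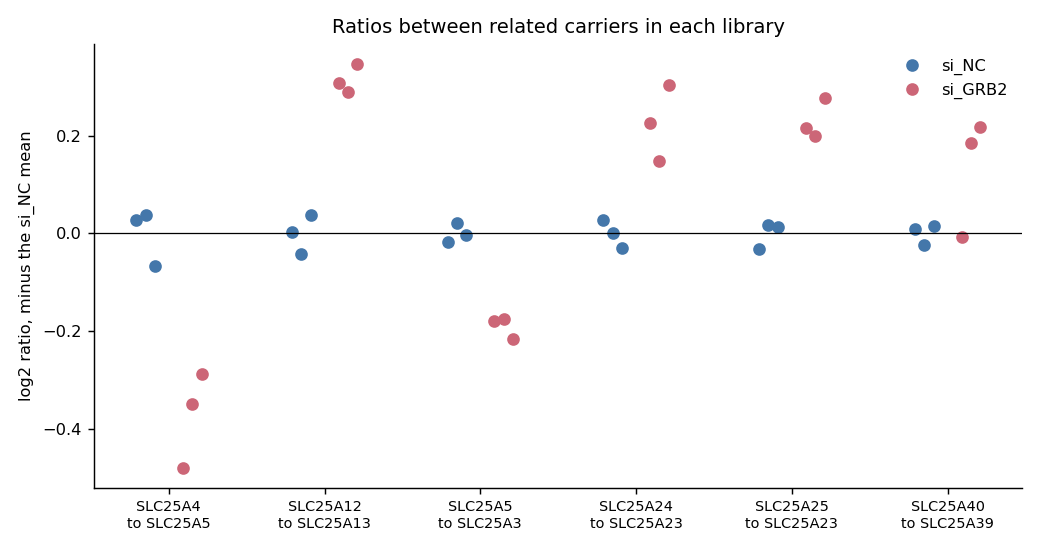
Log2 ratio between counts of related SLC25 carriers in each library, minus the mean of the si_NC libraries (vertical axis), for 6 pairs; blue points are si_NC and red points si_GRB2. SLC25A12 to SLC25A13 is higher in the 3 si_GRB2 libraries by 0.31 on average, and SLC25A4 to SLC25A5 is lower by 0.37.

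The promoters of this pair are shown because the paralogs moved apart. RefSeq promoter sequences (GRCh38.p14, 250 bases before to 50 after the start that RefSeq gives) were given for 37 of the 45 member genes, and motifs were searched on both strands, with the motifs chosen after the values were seen. The 5 motifs were the E-box (letters CACGTG), the ETS motif (letters CCGGAAG), the YY1 motif (letters AAGATGG), the CCAAT box, and the NRF1 motif (GCGC and TGCGC with any base between them). The promoter of SLC25A12 (chr2:171894195-171894494, minus strand) held none of them. It lies inside the gene as given above, because GENCODE starts the gene of SLC25A12 farther upstream than RefSeq's start. That of SLC25A13 (chr7:96322049-96322348, minus strand) held an E-box and a CCAAT box, shown in capitals:
SLC25A12: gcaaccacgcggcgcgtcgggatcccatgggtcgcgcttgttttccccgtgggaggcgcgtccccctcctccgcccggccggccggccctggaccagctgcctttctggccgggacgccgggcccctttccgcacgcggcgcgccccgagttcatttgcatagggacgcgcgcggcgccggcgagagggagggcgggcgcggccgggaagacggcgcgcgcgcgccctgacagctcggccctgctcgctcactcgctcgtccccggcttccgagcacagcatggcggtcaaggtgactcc
SLC25A13: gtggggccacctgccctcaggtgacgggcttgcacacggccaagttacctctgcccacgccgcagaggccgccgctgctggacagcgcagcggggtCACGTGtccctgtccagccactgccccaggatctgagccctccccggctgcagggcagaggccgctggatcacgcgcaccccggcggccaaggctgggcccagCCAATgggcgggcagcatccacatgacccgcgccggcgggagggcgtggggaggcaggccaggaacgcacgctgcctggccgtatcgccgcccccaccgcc

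Over the 37 members' promoters, the CCAAT box was present in 56.8%, beside 34.6% of all 35116 promoters, the ETS motif in 27.0% beside 10.3%, the E-box in 21.6% beside 7.26%, the NRF1 motif in 10.8% beside 5.78%, and the YY1 motif in 5.41% beside 5.84%. The members' promoters also had a higher median GC content, 66.7% beside 58.7%. The motifs were in called and uncalled members: the E-box was in the promoters of 8 members, of which SLC25A13 was the only called member.

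SLC25A44, a carrier of branched-chain amino acids (ENSG00000160785, chr1:156193932-156212796, plus strand, 4 exons), had the smallest adjusted p of the family. It was at 72.1, 69.7 and 71.7 CPM in si_NC and at 87.4, 87.1 and 82.8 CPM in si_GRB2. All si_GRB2 libraries were above all si_NC libraries, with a log2 fold change of 0.27 ± 0.04 (SE, adjusted p = 3.6e-05), or 20.5% more. SLC25A44 and SLC25A4 were the only members whose call was kept under every alternative tried. The carriers of glycine (SLC25A38, log2 fold change 0.08), glutamate (SLC25A22, -0.07), ornithine (SLC25A15, -0.01) and basic amino acids (SLC25A29, 0.03) were not called.

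Among the carriers of nucleotides, cofactors and vitamins, SLC25A16 was higher. SLC25A16, a member linked to coenzyme A supply, was at 20.5, 18.3 and 20.0 CPM in si_NC and at 24.4, 23.4 and 23.1 CPM in si_GRB2. The groups were separate, with a log2 fold change of 0.27 ± 0.06 (SE, adjusted p = 0.00188). The call was lost with limma on log2(FPKM + 0.1) (adjusted p = 0.0564) or log2(FPKM + 1) (0.065).

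Several members of this group were not called. They carry pyrimidine nucleotides (SLC25A33, log2 fold change 0.07, and SLC25A36, -0.09), folate and FAD (SLC25A32, -0.07), S-adenosylmethionine (SLC25A26, -0.03), NAD (SLC25A51, 0.16) or coenzyme A (SLC25A42, 0.54), and SLC25A17 (0.06) is the peroxisomal member. SLC25A42 was as large in size as SLC25A4 but rested on 72 reads over all libraries, and its 95% interval ran from -0.23 to 1.32 (adjusted p = 0.301).

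Among the carriers of iron and glutathione, SLC25A40 was higher. Together with SLC25A39 it serves glutathione import into mitochondria. SLC25A40 was at 23.9, 24.0 and 25.1 CPM in si_NC and at 25.9, 29.0 and 28.3 CPM in si_GRB2. The groups did not overlap, with a log2 fold change of 0.19 ± 0.05 (SE, adjusted p = 0.0131). The call was lost without si_GRB2 replicate 2 (adjusted p = 0.0776), si_NC replicate 1 (0.0534) or si_NC replicate 2 (0.0548). With all libraries it was lost with DESeq2 (adjusted p = 0.0527) and in the 3 limma fits on FPKM (0.059 to 0.199). DBF4 overlaps its exons on the opposite strand over 145 bases, with 301% as many reads, and its own log2 fold change was 0.03 (adjusted p = 0.589). SLC25A39 was at 124, 128 and 130 CPM in si_NC and at 136, 133 and 127 CPM in si_GRB2, groups that overlapped, and its log2 fold change was 0.06 (adjusted p = 0.229). The iron carriers SLC25A37 (mitoferrin-1) and SLC25A28 (mitoferrin-2) had log2 fold changes of 0.03 and -0.07 and were not called.

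SLC25A45 was lower. It was at 8.20, 7.69 and 8.88 CPM in si_NC and at 6.0, 6.88 and 6.72 CPM in si_GRB2. All si_GRB2 libraries were below all si_NC libraries, with a log2 fold change of -0.34 ± 0.10 (SE, adjusted p = 0.0189), and the call was lost without si_GRB2 replicate 1 (adjusted p = 0.0755) or si_NC replicate 3 (0.0628). With all libraries it was lost with DESeq2 (adjusted p = 0.0641) and with limma on log2(FPKM + 0.1) (0.338) or log2(FPKM + 1) (0.354). SLC25A43 and SLC25A53, whose substrates are not assigned, each had a log2 fold change of 0.06, and SLC25A46, the member of the outer membrane that takes part in mitochondrial shape, had 0.06. None of the 3 was called.

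**Figure D5:**
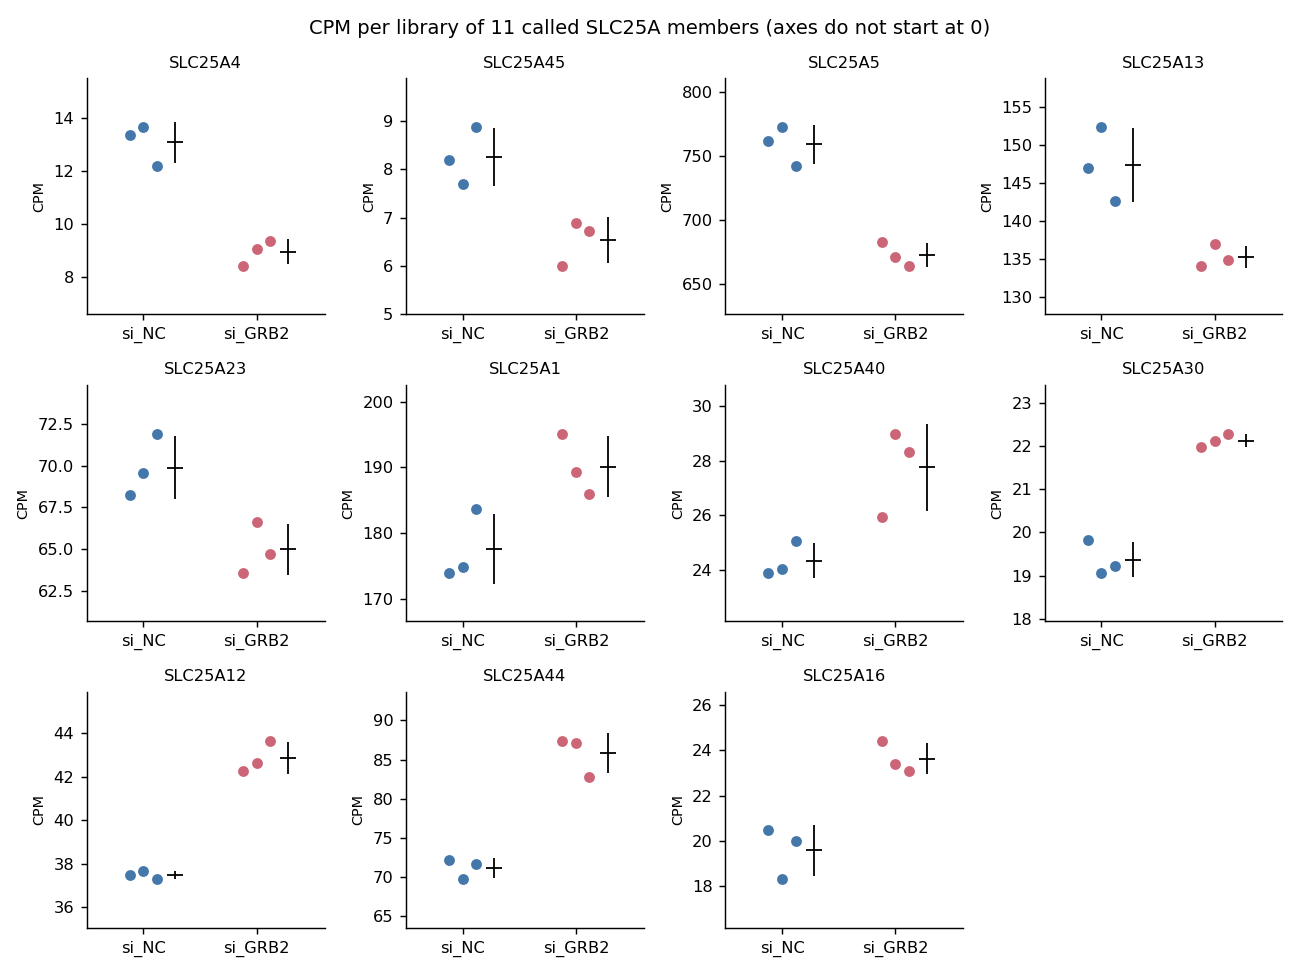
CPM per library (vertical axes, which do not start at 0) of 11 SLC25 members called at an adjusted p under 0.05, with blue points for si_NC, red points for si_GRB2, and the mean and SD (n = 3) in black beside them. In all 11 panels the groups do not overlap, from SLC25A4 (13.1 to 8.95 CPM) to SLC25A16 (19.6 to 23.6 CPM).

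Few of the counted reads lay on pseudogenes of the members. The 13 rows of SLC25 pseudogenes held 152 reads, 0.0329% of the reads of the family. By the authors' stated use of unique mapping, reads that fit a member and a pseudogene equally well were not counted, so this share does not give their number. The antisense gene SLC25A5-AS1 held 0.536% as many reads as SLC25A5, while SLC25A25-AS1 held 39.0% as many as SLC25A25.

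Genes that work with the carriers were counted from lists of 64 genes, of which 63 were tested. In all, 11 were higher (17.5%, beside 15.2% of all rows tested) and 15 lower (23.8%, beside 15.5%), and 1 (TIMM8B) passed the DEG limits (1.59%, beside 2.52%). Of the protein-coding rows tested, 17.87% were higher and 17.97% lower, and 2.86% passed the DEG limits. The balance of directions among the related genes turned with library size alone, where 18 of them were higher and 9 lower. Of the family members that carry other names, UCP2 was lower (log2 fold change -0.19, adjusted p = 4.7e-05), as was MTCH1 (-0.12, adjusted p = 0.00484), and MTCH2, an insertase of the outer membrane, was higher (0.09, adjusted p = 0.0337). Of 13 genes of the machinery that imports carriers, 2 were higher (15.4%, beside 15.2% of all rows tested) and 4 lower (30.8%, beside 15.5%). TIMM8B, a small chaperone of the intermembrane space, was at 105, 105 and 108 CPM in si_NC and at 62.1, 59.1 and 59.3 CPM in si_GRB2 (log2 fold change -0.82 ± 0.04 (SE), adjusted p = 1.11e-10). The receptors TOMM22 and TOMM20 were higher (0.28 and 0.18), whereas TIMM22, the channel-forming subunit of the carrier translocase, was lower (-0.23, adjusted p = 0.00247).

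Of 18 other mitochondrial transporters, 7 were higher (38.9%, beside 15.2% of all rows tested) and 4 lower (22.2%, beside 15.5%). The subunits of the pyruvate carrier were among the higher genes, with log2 fold changes of 0.36 ± 0.04 (SE) for MPC1 and 0.25 ± 0.04 (SE) for MPC2. The serine carrier SFXN1 (-0.34) and the outer-membrane channel VDAC1 (-0.20) were lower. Of 28 enzymes that make or use carrier substrates, 1 was higher (3.57%, beside 15.2% of all rows tested) and 5 lower (17.9%, near the 15.5% of all rows). ACLY, which cleaves the citrate that SLC25A1 exports, was at 567, 569 and 576 CPM in si_NC and at 428, 443 and 444 CPM in si_GRB2, a log2 fold change of -0.38 ± 0.02 (SE, adjusted p = 1.06e-08). SHMT2, a mitochondrial enzyme of serine and folate metabolism, had -0.22 and CRAT, the carnitine acetyltransferase, -0.37.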

How the data were processed

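After trimming, the authors mapped reads to GRCh38 (HISAT2) and used those that mapped uniquely. Deposited were read counts per gene, not normalized, and FPKM rounded by the authors. The counting tool, annotation and strand setting are not given in the sources used here. TMM factors and the quasi-likelihood test came from edgeR 4.0.16 (R 4.3.3) on the deposited counts of the 15801 rows that filterByExpr kept. The test compared the 3 si_GRB2 with the 3 si_NC libraries, with Benjamini-Hochberg adjustment over those rows. The script was tested on simulated data. Standard errors are the log2 fold change divided by the square root of F. FPKM was used only for levels between genes and in alternatives with limma 3.58.1; DESeq2 1.42.0 was a further alternative. Positions and coding sequences are from GENCODE 44, which held all 45 member IDs. Protein sequences were not used here. The counts cover all members, but the values of 1 member are not reported here. Named in full were called members, at most 14, the 5 with the highest FPKM and the ADP/ATP carriers; of related lists, those past the DEG limits and the 3 with the smallest adjusted p. A few further related genes were named after their values were seen. The members and lists were chosen with earlier results of these data known.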

Additional observations from a re-analysis of the deposited data

How the results depend on the processing

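Across 203 refits of the 12 called members (11 alternatives that kept all libraries, 1 of which gave SLC25A45 no value, and 6 that left out 1 library), 152 kept the call, 51 lost it and 0 turned direction. SLC25A3, which was not called, ranged from -0.0052 (turned, without si_NC replicate 3) to 0.0245 when 1 library was left out. With library size alone, 15 of 41 members were called (beside 32.8% of all rows), 9 of the 12 among them. Of these 15 members, 12 were higher and 3 lower, and 18 related genes were higher and 9 lower. On log2(FPKM + 0.1), limma called 3 of 46 members (beside 5.13% of all rows), 2 higher and 1 lower, with 6 related genes higher and 3 lower. On log2(FPKM + 1) it called 2 (beside 4.68% of all rows), 1 higher and 1 lower, with 6 related genes higher and 3 lower. With a mean FPKM of at least 1 it called 6 of 35 (beside 24.7% of all rows), of which 2 lower, with 8 related genes lower. The cause of these moves was not tested. Leaving out 1 library gave 8 to 10 called members (beside 23.4% to 27.5% of all rows), 3 (without si_NC replicate 3) to 6 lower, 0 to 1 past the DEG limits (1, SLC25A4, without si_NC replicate 3), and 7 (without si_GRB2 replicate 1) to 10 related genes higher. The median log2 fold change of the members was -0.019 without si_NC replicate 2. With the replicate number as a block, 11 members were called (beside 30.4% of all rows), all among the 12. However, deviations of same-numbered libraries correlated at 0.232, -0.0948 and 0.0804. Not every library correlated best with its own number, so the numbers were not taken as pairs. Members with few reads are limited by depth, as their intervals show.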

Other observations

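SLC25A21-AS1, the antisense gene of the oxodicarboxylate carrier SLC25A21, had too few reads to be tested. It held 10, 11 and 10 reads in the si_NC libraries and 4, 3 and 2 reads in the si_GRB2 libraries. SLC25A21 itself held 64 reads over the 6 libraries, with a log2 fold change of -0.02. Exons of PAX9 overlap 30.3% of its exon bases (1442) on the opposite strand, and PAX9 held 1294 reads. As the strand setting of the count is not given, the gene from which the 64 reads came is not known.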
